A study of Mus musculus with 8 samples.

Results

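TREM receptors are a small family of immunoglobulin-like receptors on myeloid cells, and Tyrobp (also called DAP12) is the adaptor through which most of them signal. The 5 genes described here, Trem1, Trem2, Trem3, Treml2 and Tyrobp, were found by symbol among 55414 gene rows of a table of raw read counts, and all 5 had a row. The counts come from red pulp macrophages, the iron-recycling macrophages of the spleen, sorted by flow cytometry from wild-type C57BL/6J mice 2 h after surgery. One group of 4 libraries followed cecal ligation and puncture (CLP), a septic insult made by tying off and piercing the cecum, and the other 4 followed sham surgery. Age, sex, the sorting gates and any pooling of mice are not given in the labels, and separate mice are not stated, so the spread behind each p-value is that between libraries and may be technical. The comparison asked how the RNA of each of the 5 genes differed between CLP and sham.

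TREM-1, TREM-2 and TREM-3 have a short cytoplasmic tail with no signalling motif of their own. A charged residue in their membrane span binds Tyrobp, whose tail carries an immunoreceptor tyrosine-based activation motif (ITAM) that recruits the kinase Syk once phosphorylated. TREM-1 amplifies inflammatory signals from Toll-like receptors in neutrophils, monocytes and macrophages, whereas TREM-2 binds lipids and apolipoproteins and is known from microglia and lipid-laden macrophages. TREM-3 is an activating receptor of mouse macrophages, and TLT-2, the product of Treml2, is a TREM-like receptor found on B cells, neutrophils and macrophages.

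The ITAM is shown because the Tyrobp-bound receptors signal through it. In the GENCODE M21 transcripts, 1 coding transcript of Tyrobp (342 coding bases without the stop codon) held the motif, and 0 of the coding transcripts of Trem1, Trem2, Trem3 and Treml2 did. In the stretch of 45 coding bases below, the capitals mark the codons of the tyrosine and of the leucine 3 codons after it in each repeat of the motif, with 7 codons between the repeats.
Tyrobp ITAM, coding strand: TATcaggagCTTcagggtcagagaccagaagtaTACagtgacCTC

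Promoter sequence was at hand from RefSeq (GRCm38.p6) for Trem1 and Trem2, 2 of the 5 genes. These 250 bases before the start are shown because Trem1 rose most and Trem2 was almost silent while both lie in the same cluster on chromosome 17. The build differs from the mm39 of the counts, which carry no coordinates. Capitals mark matches on either strand to 5 motifs: GAGGAA of PU.1, the factor that specifies macrophages, TGANTCA of AP-1, TTGCNNAA of C/EBP, TGACG of the cyclic AMP response element, and the NF-kB site by name.
Trem1, chr17:48232489-48232738, plus strand: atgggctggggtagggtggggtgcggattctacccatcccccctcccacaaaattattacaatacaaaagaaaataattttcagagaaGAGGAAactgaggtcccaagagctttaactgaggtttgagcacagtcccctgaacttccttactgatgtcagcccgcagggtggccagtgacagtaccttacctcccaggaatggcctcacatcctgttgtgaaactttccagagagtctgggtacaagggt
Trem2, chr17:48346151-48346400, plus strand: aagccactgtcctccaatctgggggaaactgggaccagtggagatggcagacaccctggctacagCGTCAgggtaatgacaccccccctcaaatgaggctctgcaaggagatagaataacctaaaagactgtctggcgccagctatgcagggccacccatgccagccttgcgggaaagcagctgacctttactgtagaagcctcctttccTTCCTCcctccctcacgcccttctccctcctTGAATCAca

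The Trem1 window held 1 match, the PU.1 letters 162 to 157 bases before the start. The Trem2 window held the PU.1 letters on the other strand, an AP-1 match 9 to 3 bases before the start and the response element letters. Over 32851 promoter windows of the same length, 23.3% held the PU.1 letters, 17.8% the response element, 9.56% C/EBP, 7.25% NF-kB and 6.75% AP-1. These matches overlapped no other searched motif in the windows of Trem1 and Trem2. A match describes letters only, and the missing NF-kB and AP-1 matches before Trem1 say only that these letters are not in this window.

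Library totals lay between 15392992 and 25665633 counts. Levels are CPM, counts scaled to library totals that were adjusted by TMM, a correction for differences in RNA composition, and 1 CPM rested on 15.1 to 27.6 reads. Of 14004 genes that passed a filter on low counts, edgeR called 43.3% changed, 19.8% higher and 23.5% lower after CLP, with a median log2 change of -0.05. Scaling to library totals instead shifted all log2 changes by a median of -0.32, and 9.18% were then higher and 46.0% lower. Small changes are therefore given under both scalings. Red pulp macrophage markers were abundant in every library, with 13 markers, Vcam1 the highest, summing to 40600 to 49710 CPM in sham and 48510 to 54540 CPM in CLP. Of these 8 were called higher and 2 lower (1 and 4 with library totals), and Spic, the factor that specifies these cells, changed most, from 1186 ± 118 to 2213 ± 370 CPM. The lower markers, the iron exporter gene Slc40a1 (-0.40) and Mertk (-0.51), were named after their values were seen.

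Trem1, Trem3 and Treml2 were higher after CLP, Tyrobp did not pass the test, and Trem2 was too scarce to judge. Trem1 rose 14.9-fold, Trem3 1.72-fold and Treml2 1.69-fold, so that 3 of the 4 genes tested were higher and 0 lower, beside the 19.8% of all genes called higher. The rises of Trem3 and Treml2 did not pass with library totals, whereas that of Trem1 did. More or fewer cells with a transcript cannot be told apart from more or less RNA per cell in these bulk libraries.

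**Figure D1:**
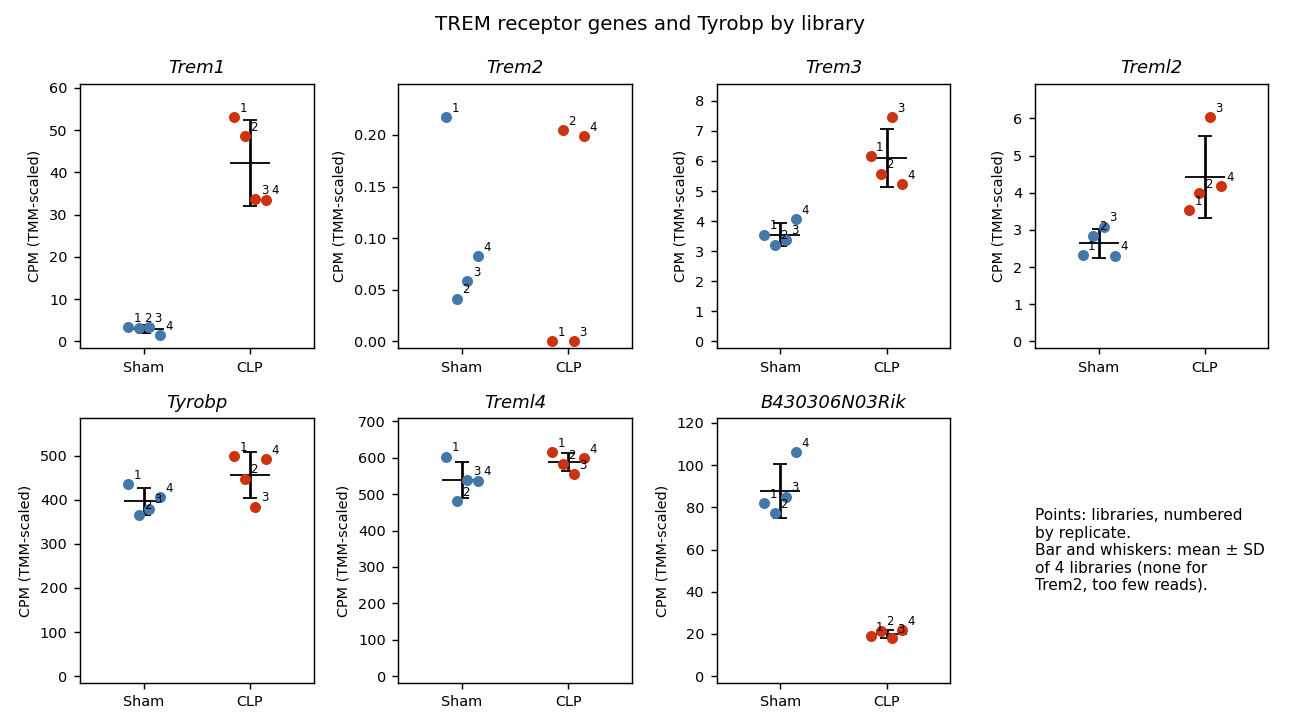
CPM on TMM-scaled totals (vertical axis, from 0, a separate scale in each panel) of the 5 genes and of 2 neighbours of the TREM cluster in the 4 sham (blue) and 4 CLP (red) libraries, with the mean and SD of each group except for Trem2. Trem1 lies between 33.6 and 53.0 CPM in CLP and between 1.40 and 3.38 CPM in sham, while B430306N03Rik, labelled by its file symbol, falls from 87.6 to 20.1 CPM on average.

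Trem1 (ENSMUSG00000042265), the amplifying receptor, was nearly silent in sham macrophages. Its level was 3.33, 3.25, 3.38 and 1.40 CPM in sham libraries 1 to 4, from 34 to 92 reads each. After CLP it was 53.0, 48.6, 33.6 and 33.6 CPM, and the groups did not overlap, as for 41.5% of all genes tested. CLP replicates 1 and 2 were the high ones of their group, and Sham replicate 4 was the low one of its own. The log2 change was 3.90 (SE 0.28, 95% interval 3.26 to 4.53, with 4 libraries a group; edgeR quasi-likelihood F-test, adjusted p = 9.35e-06). Only 0.264% of the genes tested (37 genes, Trem1 included) were called higher by at least as much. With library totals the log2 change was 3.59 (adjusted p = 8.66e-06), and without Sham replicate 4 it was 3.69.

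Trem3 (ENSMUSG00000041754), the next TREM gene after Trem1 on the chromosome, was a low transcript in both groups. It stood at 3.55, 3.21, 3.38 and 4.07 CPM in sham and at 6.15, 5.57, 7.45 and 5.23 CPM in CLP, from 58 to 136 reads a library. With TMM the groups did not overlap, CLP replicate 3 was the highest of all, and Sham replicate 4 was the highest of the sham libraries. With library totals the groups overlapped, at 4.56 CPM in CLP replicate 4 and 4.69 CPM in Sham replicate 4. The log2 change was 0.78 (SE 0.18, adjusted p = 0.00428 in edgeR), but 0.46 with library totals, where it missed the threshold (adjusted p = 0.0530).

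Treml2 (ENSMUSG00000071068), which encodes TLT-2, was the lowest of the tested genes, with 53 to 110 reads a library. Its level was 2.32, 2.84, 3.09 and 2.30 CPM in sham and 3.52, 3.99, 6.03 and 4.17 CPM in CLP. CLP replicate 3 was again the highest, and with TMM the other CLP libraries lay just above the sham range. With library totals CLP replicate 1, at 3.13 CPM, lay within the sham range of 2.49 to 3.44 CPM. The log2 change of 0.75 (SE 0.22, adjusted p = 0.0178 in edgeR) became 0.44 with library totals (adjusted p = 0.126). Without CLP replicate 3 it was 0.57 with an adjusted p of 0.0498.

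Trem2 (ENSMUSG00000023992), the lipid-binding receptor, was too scarce to judge. Its reads numbered 6, 1, 1 and 2 in sham libraries 1 to 4 and 0, 4, 0 and 3 in CLP libraries 1 to 4, and it did not pass the filter on low counts. Summed over a group this is 10 of 83900604 reads in sham, or 0.119 CPM with an exact 95% Poisson interval of 0.0572 to 0.219. In CLP it is 7 of 76465998 reads, or 0.0915 CPM with an interval of 0.0368 to 0.189. The intervals cover counting error only and overlap widely, so no difference was detectable at this depth. A library without a read allows up to 0.192 CPM in CLP replicate 1 and 0.164 CPM in CLP replicate 3, the level of 3 reads.

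Tyrobp (ENSMUSG00000030579), the adaptor on chromosome 7, was by far the most abundant of the 5 genes. It stood at 435, 366, 380 and 406 CPM in sham and at 498, 448, 384 and 492 CPM in CLP. CLP replicate 3 lay within the sham range, and the groups overlapped. The log2 change was 0.20 (SE 0.10, 95% interval -0.01 to 0.41, adjusted p = 0.113 in edgeR) with TMM and -0.12 (95% interval -0.31 to 0.07, adjusted p = 0.260) with library totals, so its direction depended on the scaling. Without CLP replicate 3 it was called higher (0.28, adjusted p = 0.0171).

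**Figure D2:**
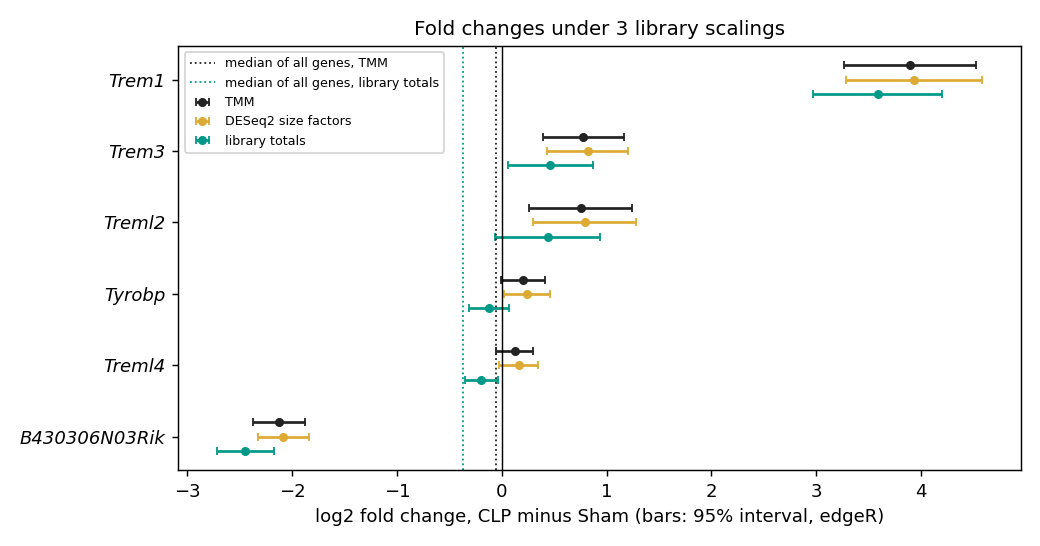
Log2 change of CLP minus sham (horizontal axis) with its 95% interval from edgeR under 3 library scalings, for the 4 tested genes and 2 neighbours of the TREM cluster. Trem1 (3.90) and B430306N03Rik (-2.13) keep their side of 0 under each scaling, whereas Tyrobp and Treml4 lie above 0 with TMM and below it with library totals. Dotted lines mark the median of all genes.

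Ratios of reads within 1 library do not depend on how libraries are scaled. They were used to test whether the receptor genes and Tyrobp changed unequally, whether or not the receptor pairs with Tyrobp. For every 1000 Tyrobp reads there were 7.22 ± 2.59 Trem1 reads in sham and 92.6 ± 18.8 in CLP (SD, n = 4 each). The log2 ratio of Trem1 to Tyrobp was -7.02, -6.80, -6.80 and -8.16 in sham and -3.23, -3.20, -3.52 and -3.87 in CLP. The groups were far apart, with a difference of 3.74 (two-sided exact permutation test over 70 assignments, p = 0.0286, which is the lowest value possible, adjusted p = 0.0429 over 3 ratios).

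Relative to Tyrobp, Trem3 went from 8.97 ± 0.78 to 13.7 ± 3.9 reads for every 1000 Tyrobp reads. The log2 ratio lay between -6.93 and -6.63 in sham and between -6.55 and -5.68 in CLP, so that the groups were separated by a narrow gap (difference 0.58, exact permutation p = 0.0286, adjusted p = 0.0429). Leaving out any one of the 4 sham libraries ended this call (exact permutation p = 0.0571). CLP replicate 4 was closest to the sham range, and the difference without CLP replicate 3 was 0.40. For Treml2 the ratios overlapped, at -7.54 to -6.93 in sham and -7.13 to -5.99 in CLP, and the difference of 0.53 did not pass (exact permutation p = 0.143, adjusted p = 0.143). Trem2 gave 0.242 ± 0.175 reads for every 1000 Tyrobp reads in sham and 0.215 ± 0.249 in CLP, and its ratios were not tested. The log2 ratio of Trem1 to Trem2, which rests on those few Trem2 reads, lay between 3.79 and 5.73 in sham and between 7.18 and 10.7 in CLP. In CLP replicates 1 and 3 (10.7 and 10.3), with 0 Trem2 reads, it was set by the 0.5 added to each count.

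**Figure D3:**
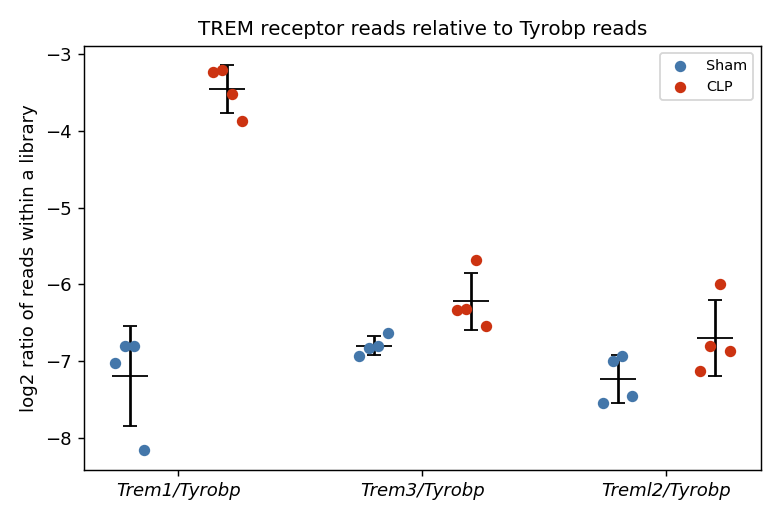
Log2 ratio of the reads of each receptor gene to those of Tyrobp in the same library (vertical axis, 0.5 added to each count), with the mean and SD of 4 sham (blue) and 4 CLP (red) libraries. The Trem1 ratios are -8.16 to -6.80 in sham and -3.87 to -3.20 in CLP, and the Treml2 ratios overlap.

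To set genes side by side, levels were divided by exon length, as CPM per kb. The order in sham was Tyrobp, Trem3, Trem1, Treml2 and Trem2, at 595 ± 46, 3.57 ± 0.37, 0.948 ± 0.321, 0.536 ± 0.080 and 0.0202 ± 0.0162 CPM per kb. In sham the ranges of Trem1 (0.467 to 1.13) and Treml2 (0.468 to 0.628) overlapped, so those neighbours in the order did not differ beyond their spread. After CLP Trem1 moved ahead of Trem3, at 14.1 ± 3.4 against 6.14 ± 0.98 CPM per kb, with ranges of 11.2 to 17.7 and 5.26 to 7.50 that did not overlap. Treml2 reached 0.900 ± 0.224 and Tyrobp 683 ± 79 CPM per kb. With the median length of coding transcripts in place of all exons, the sham levels were 0.868 for Treml2 and 0.0930 for Trem2, above those on exon length.

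The same cluster on chromosome 17 holds further TREM genes, in the order Trem1, Trem3, Treml4, Treml2, B430306N03Rik (Treml6 in RefSeq), Trem2 and Treml1. Treml4, which encodes a Tyrobp-pairing receptor of splenic macrophages that binds dying cells, was the most abundant TREM receptor gene in these cells. It stood at 603, 481, 539 and 537 CPM in sham and at 616, 582, 556 and 599 CPM in CLP, and the groups overlapped. Its log2 change was 0.12 with TMM (SE 0.08, adjusted p = 0.246 in edgeR) and -0.19 with library totals, where it was called lower (adjusted p = 0.0369). At 270 ± 25 CPM per kb of exon in sham it was second to Tyrobp among the genes of the family and far above Trem3. With the median length of coding transcripts its sham level was 644 ± 59, beside 684 ± 53 for Tyrobp. Those ranges (574 to 719 and 631 to 751) overlapped, so its distance from Tyrobp depended on the length used.

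B430306N03Rik moved against Trem1. Its level was 82.0, 77.2, 85.0 and 106 CPM in sham and 19.0, 21.5, 18.0 and 21.7 CPM in CLP, so every CLP library was far below every sham library. It fell 4.37-fold (log2 change -2.13, SE 0.11, adjusted p = 6.76e-07 in edgeR, and -2.45 with library totals). Of its 50-base transcript stretches 3.56% also occurred in other genes, A530064D06Rik and 9830107B12Rik (Trem4 and Trem5 in RefSeq) first among them, while 0% did for Trem1, Trem2, Trem3, Treml2, Treml4 and Tyrobp. No exon of these genes overlapped an exon of another gene on either strand in GENCODE M21. Treml1, a platelet receptor, had 22 reads in sham and 33 in CLP and did not pass the filter.

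Within the 7 genes of the cluster, levels per kb in a library were turned into shares. Treml4 held 92.5% ± 0.9 of the sum in sham and 92.1% ± 0.8 in CLP (SD, n = 4 each). Trem1 went from 0.327% ± 0.116 to 4.39% ± 0.92, and B430306N03Rik from 5.72% ± 0.84 to 1.19% ± 0.11. No library of either group entered the range of the other for these 2 genes. These shares were chosen after the values were seen and were not tested.

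**Figure D4:**
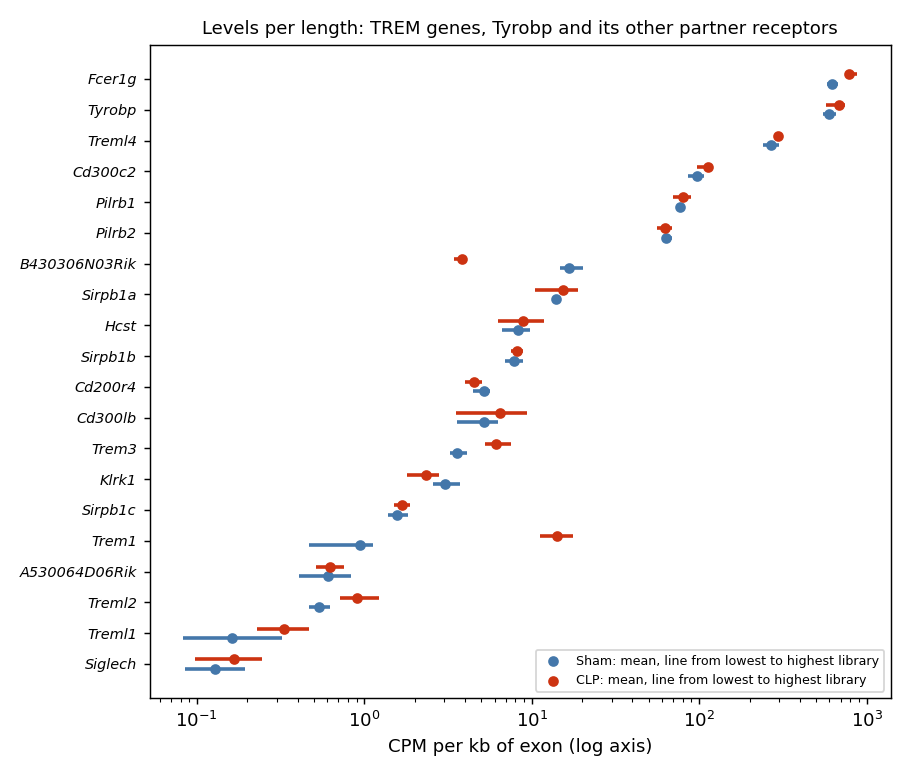
Mean level in CPM per kb of exon (horizontal log axis) with a line from the lowest to the highest library, for TREM genes, Tyrobp, Fcer1g, Hcst and other Tyrobp partners with a mean above 0.1 in either group. Trem1 moves from 0.948 in sham (blue) to 14.1 in CLP (red) and B430306N03Rik from 16.7 to 3.82, while most other partner genes keep their place.

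Tyrobp also serves receptors other than TREM-1, TREM-2 and TREM-3. Of 14 such partner genes, Treml4 among them, 11 were tested. In edgeR 0 were called higher and 0 lower (19.8% and 23.5% of all genes), with a median log2 change of 0.11. With library totals 0 were higher and 6 lower, namely Treml4, Pilrb1, Pilrb2, Sirpb1b, Cd200r4 and Klrk1. Of all genes 9.18% were called higher and 46.0% lower with that scaling, so the share lower is near the background. All 11 are named here or below after their values were seen, since none but Treml4 was taken by the naming rule. Cd300c2, an activating receptor of the CD300 family, averaged 124 ± 12 CPM after sham surgery and 143 ± 13 CPM after CLP (0.21, adjusted p = 0.0832). Klrk1, which encodes NKG2D, was at 21.9 ± 3.5 and 16.9 ± 3.2 CPM (-0.38, adjusted p = 0.0711). Clec5a, Cd200r3 and Siglec15 did not pass the filter, and Siglec15 had 0 reads in all libraries. Values of Sirpb1a, Sirpb1b and Sirpb1c (40.4% to 58.0% of their 50-base stretches shared) and of Pilrb1 and Pilrb2 (30.6% to 32.2%) are uncertain, because their reads can be split between copies. Siglech (0.39, with under 1 CPM in both groups and so too scarce to judge) and Cd300lb (0.32) were the remaining tested partners.

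The other membrane adaptors that take the place of Tyrobp were compared as well. Fcer1g, the Fc receptor gamma chain with an ITAM of its own, went from 543 ± 37 to 684 ± 55 CPM, a log2 change of 0.33 that passed (adjusted p = 0.00650). With library totals the value was 0.02 and did not (adjusted p = 0.856). Hcst, the adaptor DAP10 and direct neighbour of Tyrobp, stood at 5.96 ± 0.93 and 6.41 ± 1.67 CPM and did not pass (adjusted p = 0.716).

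More kinases and adaptors of ITAM signalling were higher than lower with TMM. The list includes Hcst and Fcer1g, which are not downstream of the Tyrobp ITAM, and Fcer1g is counted among those higher. Of 29 genes, all tested, 13 were higher and 1 lower in edgeR, with a median log2 change of 0.29 beside -0.05 over all genes tested. These counts stand beside 19.8% and 23.5% of all genes. With library totals 9 were higher and 7 lower, beside 9.18% and 46.0% of all genes, with a median of -0.03. Malt1, the protease of the Card9 complex, rose from 48.9 ± 7.2 to 173 ± 32 CPM (log2 change 1.82, adjusted p = 7.99e-06). Its partner Bcl10 rose from 63.6 ± 5.7 to 122 ± 6 CPM (0.94, and 0.62 with library totals), whereas Card9 itself was near 1 CPM in both groups (1.38 ± 0.31 and 0.976 ± 0.372 CPM, adjusted p = 0.240). Pik3r1, the p85-alpha regulatory subunit of PI3 kinase and the most abundant gene of the list, rose 2.81-fold from 1255 ± 186 CPM. Bcl10, Card9 and Syk are named here for their roles, with their values known.

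Syk, the kinase recruited by the Tyrobp ITAM, rose from 1005 ± 96 to 1685 ± 208 CPM (log2 change 0.75, SE 0.10, adjusted p = 0.000209 in edgeR, and 0.43 with library totals, adjusted p = 0.00262). Btk was the member called lower, from 68.6 ± 5.2 to 56.4 ± 4.8 CPM (log2 change -0.28, adjusted p = 0.0198). Its call was lost without Sham replicate 1 (adjusted p = 0.104) or Sham replicate 4 (0.0712).

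Of 19 genes that restrain ITAM signals, all tested, 9 were higher and 3 lower in edgeR (19.8% and 23.5% of all genes), and 5 and 5 with library totals (9.18% and 46.0% of all genes). The median log2 change was 0.24 and -0.07, beside -0.05 and -0.37 over all genes. Lilrb4a, an inhibitory receptor, rose from 55.4 ± 16.9 to 129 ± 41 CPM (log2 change 1.22, adjusted p = 0.00808), and Ubash3b, a phosphatase that acts on Syk, rose from 17.8 ± 2.4 to 33.2 ± 2.3 CPM (0.90). The adaptor Dok3 fell by 0.52 on the log2 scale and Ptpn6, which encodes the phosphatase SHP-1, by 0.33 (adjusted p = 0.000966 and 0.0106). Cbl, a ubiquitin ligase named after its value was seen, was the other lower member (-0.30). Sirpa, the most abundant member, went from 2912 ± 244 to 3782 ± 192 CPM (0.38, adjusted p = 0.00359), a change that shrank to 0.06 with library totals.

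**Figure D5:**
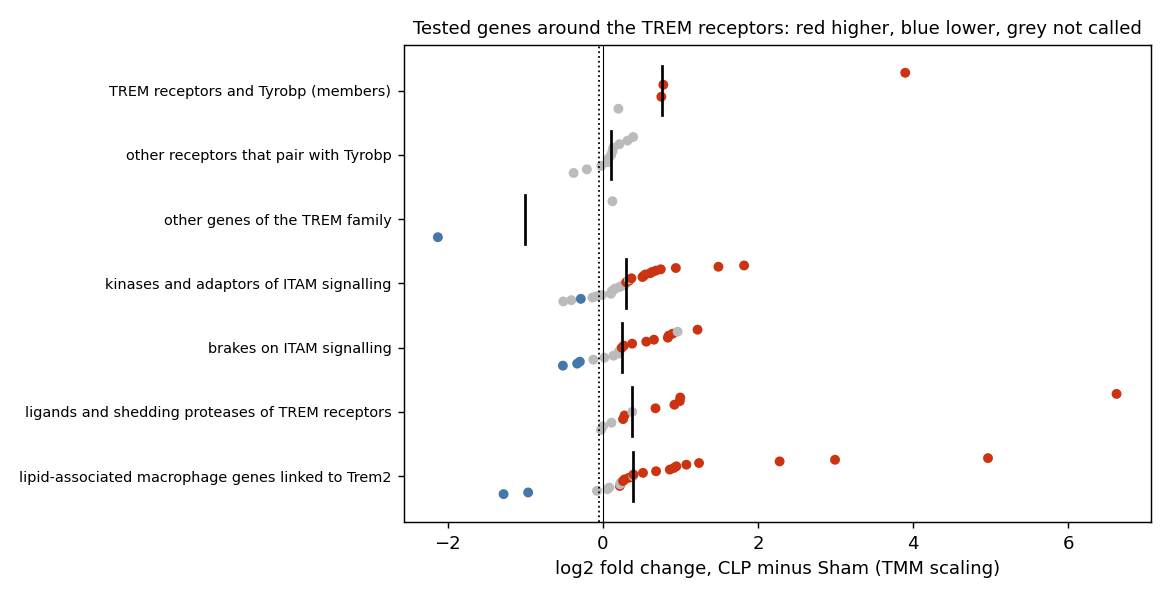
Log2 change of CLP minus sham with TMM scaling (horizontal axis) for the tested genes of 7 lists, one point a gene, with the list's median as a black bar and the median of all genes (-0.05) as a dotted line. Red points were called higher, blue points lower and grey points were not called, and the partner receptors of Tyrobp have grey points only.

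Ligands reported for TREM receptors and the proteases that shed TREM receptors were partly higher. Of 15 genes 11 were tested, 7 were higher and 0 lower in edgeR (19.8% and 23.5% of all genes; median log2 change 0.38), and 5 and 2 with library totals (9.18% and 46.0% of all genes; median 0.07). The 11 include Il34, which was under 1 CPM in both groups and so too scarce to judge, and the TMM median is its value. Pglyrp1, which encodes a ligand of TREM-1, did not pass the filter, and Hmgb1, another reported TREM-1 ligand, averaged 86.3 ± 4.5 CPM after sham surgery and 84.9 ± 5.0 CPM after CLP. Apoe, a TREM-2 ligand and the most abundant gene of the list, went from 2017 ± 106 to 2416 ± 193 CPM (0.26, adjusted p = 0.0235), but turned to -0.057 with library totals. It no longer passed once CLP replicate 1 was left out (adjusted p = 0.0741). S1pr1, which is a receptor for the lipid sphingosine-1-phosphate and not itself a ligand, rose from 9.19 ± 3.30 to 18.2 ± 2.0 CPM. It is counted among the 7 higher, as is Rhbdf2, a partner of the protease ADAM17.

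Among the shedding genes, Rhbdf2, which brings the protease ADAM17 to the cell surface, rose from 172 ± 16 to 326 ± 57 CPM (log2 change 0.92, adjusted p = 0.000150, and 0.60 with library totals). Adam17 itself rose from 190 ± 12 to 303 ± 36 CPM (0.68, and 0.36 with library totals), whereas Adam10 was at 208 ± 6 and 208 ± 23 CPM (0.00, adjusted p = 0.990, and -0.32 with library totals, where it was called lower). Cd276, reported as a binding partner of TLT-2, had 3 reads in the 4 sham libraries and 253 in the 4 CLP libraries, a ratio of 92.5 for equal library totals with an exact 95% counting interval of 31.3 to 452. Its CLP level was 3.82 ± 1.44 CPM. Cd276, Hmgb1, Pglyrp1, Il34, Adam10 and Adam17 were named with their values known.

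Genes of lipid-associated macrophages, a state tied to TREM-2 in other tissues, were examined although Trem2 itself was almost silent. Of 25 genes 23 were tested, 15 were higher and 2 lower in edgeR (19.8% and 23.5% of all genes; median log2 change 0.39), and 9 and 4 with library totals (9.18% and 46.0% of all genes; median 0.07). Cd63, a membrane protein of late endosomes, rose from 3.41 ± 0.92 to 16.4 ± 3.4 CPM (log2 change 2.28, adjusted p = 1.26e-05), and the fatty acid carrier Fabp5 from 119 ± 23 to 280 ± 50 CPM (1.24). The lipid droplet coat gene Plin2 fell from 212 ± 12 to 87.4 ± 9.9 CPM (-1.28, adjusted p = 2.15e-06) and the sterol exporter Abcg1 from 698 ± 76 to 358 ± 52 CPM (-0.96). Among low genes of the list, Gpnmb rose from 0.214 ± 0.121 to 1.83 ± 1.02 CPM (2.99, adjusted p = 0.00100 in edgeR). Ch25h, with 2 reads in sham and 59 in CLP, was under 1 CPM in both groups and too scarce to judge. It passed the filter and is counted among the 15 called higher. With a filter at a mean of 1 CPM instead, 13 genes of the list were higher. Spp1 had 0 to 7 reads a library and was not tested, nor was Cst7, with 5 to 10. Ctsb, a lysosomal protease gene and the most abundant of the list, went from 8059 ± 436 to 9374 ± 274 CPM (0.22, adjusted p = 0.0347), but turned to -0.10 with library totals. It no longer passed when any of CLP replicates 1, 2 and 4 and Sham replicates 2 and 3 was left out (adjusted p up to 0.103). Gpnmb, Ch25h, Spp1 and Cst7 were named with their values known.

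Trem1 is also abundant in neutrophils and monocytes, so markers of these cells were read beside it. Of 15 neutrophil markers 5 passed the filter, and 4 were higher with TMM and 3 with library totals (19.8% and 9.18% of all genes). The list summed to 77.8 to 94.2 CPM in sham and 105 to 178 CPM in CLP, most of it Csf3r (79.0 and 111 CPM on average). S100a8 and S100a9 rose from 1.60 and 2.06 to 6.93 and 9.90 CPM, and Lcn2 was the most changed marker (log2 change 3.39). The other 11 markers had means of at most 2.05 CPM and did not move one way. Reads summed over the 4 sham and the 4 CLP libraries were 0 and 1 for Ly6g, 1 and 4 for Camp, 3 and 2 for Stfa2l1, 4 and 49 for Ltf, 25 and 41 for Ngp, 40 and 40 for Mmp8 and 57 and 58 for Retnlg. They were fewer after CLP for Mpo (172 and 7), Mmp9 (51 and 20), Cxcr2 (41 and 12) and Elane (29 and 1), and Mpo reached 5.01 CPM in 1 sham library. The CLP libraries highest in Trem1, replicates 1 and 2, had the lowest neutrophil sums of their group (105 and 110 CPM), and replicate 3 had the highest (178). These sums are mostly Csf3r, and a neutrophil part in the Trem1 level was not tested. Of 9 monocyte markers 7 were tested. With TMM 1, Fn1, was higher (19.8% of all genes), and with library totals 0 were (9.18%).

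Erythroid markers were also higher after CLP. Of 7 markers 5 were tested, and 3 were higher with TMM and 2 with library totals (19.8% and 9.18% of all genes). Alas2 was the most abundant and Hbb-bs the most changed. The list summed to 140, 184, 166 and 392 CPM in sham libraries 1 to 4. In CLP libraries 1 to 4 it summed to 445, 496, 825 and 440 CPM. CLP replicate 4 was the lowest CLP library in both the erythroid sum and Trem3. Between CLP replicates 1 and 2, and among Sham replicates 1 to 3, the orders of the erythroid sums and of Trem3 were opposite. An erythroid part in the Trem3 level was not tested. CLP replicate 3 and Sham replicate 4, the highest of their groups in erythroid sums, were also the libraries highest in Trem3. Without these 2 libraries the log2 change of Trem3 was 0.74 (adjusted p = 0.00939 in edgeR), that of Treml2 was 0.51 and lost its call (adjusted p = 0.101), that of Tyrobp was 0.28 and passed (adjusted p = 0.0170), and that of Trem1 was 3.76. Removing those libraries was chosen after seeing the data.

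Treml2 belongs to B cells as well, and 7 B cell markers summed to 56.5 to 67.9 CPM in sham and 47.5 to 57.0 CPM in CLP, with 0 of 7 higher and 1, Cd79b, lower. Platelet markers summed to 6.80 to 7.95 CPM in sham and 18.1 to 22.6 CPM in CLP, with 3 of 4 tested markers higher (Pf4 most changed, Ppbp most abundant). Of 7 tested dendritic cell markers 1 was higher (Zbtb46, named after its value was seen) and 1 lower (Clec9a), and the list, mostly Itgax, summed to 149 to 177 CPM in sham and 162 to 207 CPM in CLP. Marginal zone and metallophilic macrophage markers, led by Siglec1, summed to 305 to 374 and 368 to 677 CPM with Marco higher, and T and NK cell markers, led by Cd4, to 98.5 to 103 and 106 to 129 CPM with Ncr1 lower. The counts of these lists are with TMM, beside 19.8% of all genes higher and 23.5% lower. With library totals (9.18% and 46.0% of all genes) only the dendritic cell counts differed, with 0 higher and 1 lower. The part of other cells in the changes of the TREM genes was not tested.

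Genes with patterns most like those of Trem1, Trem3 and Tyrobp were sought by Pearson correlation of log2 CPM over the 8 libraries, which share the 2 groups, so r describes mainly the group difference. The nearest to Trem1 were Thbd (r = 0.999), which encodes thrombomodulin, Pik3r1 (0.998) and the kinase gene Stk17b (0.998). Thbd went from 11.2 ± 2.2 to 60.0 ± 9.7 CPM, and 577 of 9035 genes reached an r of 0.95 or more. The nearest to Trem3 were Ube2o (0.992), a ubiquitin enzyme of maturing red cells, Ube2l6 (0.987) and Tent5c (0.987), with 51 genes at 0.95 or more. The nearest to Tyrobp were the ribosomal protein genes Rpl34 (0.980) and Rpl37 (0.974) and the prefoldin gene Pfdn5 (0.973), none of which passed the test between the groups (adjusted p = 0.0915, 0.0730 and 0.0868 in edgeR).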

How the data were processed

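RNA-seq libraries of sorted red pulp macrophages, 4 CLP and 4 sham, were grouped by their titles. The authors deposited 1 table of raw counts by Ensembl gene. The submitters' processing notes list STAR 2.7.10b, featureCounts, FastQC, DESeq2 and build mm39 and give no roles, and the kit was stranded per the labels' protocols. Annotation release and strand setting were not given in the sources used here. Symbols and exon lengths came from GENCODE M21 (52081 of 55414 rows matched), and no coordinates of the counts are given.

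The test across all genes was the robust quasi-likelihood F-test of edgeR 4.0.16 (R 4.3.3) after filterByExpr and TMM, without covariates, with Benjamini-Hochberg adjustment over 14004 genes and a threshold of 0.05. Standard errors were derived from the log2 change and its F statistic. A gene that failed the filter, or had under 1 CPM in both groups, was called too scarce to judge. Within-library ratios had 0.5 added to each count and a two-sided exact permutation test. The fit was tested on simulated data. The naming rule took the 5 genes, the 2 largest rises and falls with a mean of 5 CPM or more, plus the highest gene, of each pathway list, of each marker list the most changed and the highest gene, and the 3 nearest patterns. The summed level of the monocyte markers is not reported here. Members and lists were chosen with earlier results of these data known.

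Alternatives were DESeq2 1.42.0, limma-voom (limma 3.58.1), other scalings and filters, 1 surrogate variable (sva 3.50.0), a replicate block, other offsets and lengths, and each library left out. Same-numbered CLP and sham libraries did not deviate together (r from -0.192 to 0.261), so the numbers were not taken as pairs. Figures used Python 3.11.15 and matplotlib 3.10.9.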

Additional observations from a re-analysis of the deposited data

Results flagged for a closer look

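Of 56 groups of 4 values looked at, 3 were flagged, and in each Sham replicate 4 lay apart from the other 3 sham libraries. The flagged Trem1 level and Trem1 ratio rest on the same Trem1 reads, so the flags are not independent. Whether they exceed chance was not tested. Its Trem1 level was 1.40 CPM, with the others at 3.25 to 3.38 CPM. Its log2 ratio of Trem1 to Tyrobp was -8.16, with the others at -7.02 to -6.80. Its Pik3r1 level was 976 CPM, with the others at 1334 to 1358 CPM. In each case it was the lowest library, farther from the CLP libraries than the rest of its group.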

How the results depend on the processing

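Trem1 was called higher under every alternative run, with log2 changes of 3.59 to 4.03, and Trem3 and Treml2 under each but library totals (0.46 and 0.44), Treml2 also not without CLP replicate 3 and Sham replicate 4 together (0.51). Tyrobp was reversed with library totals (-0.12) and passed without CLP replicate 3 (0.28), as it did without the same 2 libraries (0.28). Library totals also reversed Treml4 (-0.19), Apoe (-0.057) and Ctsb (-0.10), and gave 1286 genes higher and 6435 lower over all genes, 5 higher and 5 lower among the brakes, 9 higher and 4 lower among lipid-associated genes, and 6, 2, 7 and 2 lower among partner receptors, other TREM genes, kinases and adaptors, and ligands and proteases. Library totals and TMM differ by a shift of all log2 changes (median -0.32), and which scaling is nearer the truth was not tested. Partner receptors went from 0 higher to 1 with DESeq2 size factors or the replicate block, and from 0 lower to 1 with no filter on low counts, 1 surrogate variable or the replicate block; the cause was not tested.

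Leaving out single libraries gave 3.69 to 4.03 for Trem1, 0.67 to 0.87 for Trem3, 0.57 to 0.86 for Treml2 and 0.16 to 0.28 for Tyrobp, 0 to 2 partner receptors higher and 0 to 1 lower, and 0 to 1 kinases and adaptors lower. Without CLP replicate 3 and Sham replicate 4 together 2 partner receptors were higher and 0 kinases and adaptors lower. The log2 ratio of Trem1 to Tyrobp changed by 3.42 to 3.88, and that of Trem3 by 0.40 to 0.68, with exact permutation p of 0.0571 without any single sham library. With the replicate block the ratio differences of 3.74 and 0.58 have an exact permutation p of 0.125, the smallest that 4 pairs allow, so that test could not pass. In edgeR the replicate block changed no call of the 5 genes (log2 changes 3.93, 0.77, 0.73 and 0.20 for those tested). Depth limits Trem2 most, with 0 to 6 reads a library.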
